A study of Mus musculus with 6 samples.

Results

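The sites described here are regions of the mouse genome that carried p300 both in resting macrophages and after a bacterial signal, and that already held PU.1 and mono-methylated histone H3 lysine 4 (H3K4me1) at rest. They are called the constitutive sites. The authors' p300 peaks of LPS-treated cells (12237) and of untreated cells (12421) on chromosomes 1 to 19 and X were merged into 19879 p300 sites. A site was kept when it overlapped, by at least 1 bp, a peak of each p300 list, an untreated PU.1 peak and an untreated H3K4me1 peak. Of the 19879 sites, 4619 lay in both p300 lists, 3913 of these also held an untreated PU.1 peak, and 3264 (16.4% of all p300 sites, 70.7% of those in both lists) passed every step.

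Chromatin immunoprecipitation with sequencing located p300, PU.1 and H3K4me1 in primary macrophages grown for 7 days from the bone marrow of female Fvb mice in L929-conditioned medium. The LPS cells received lipopolysaccharide, a cell wall component of Gram-negative bacteria, at 10 ng/ml for 2 h, and the untreated cells received none. p300 was sequenced in 2 biological replicates of LPS cells and 2 of untreated cells, PU.1 in 1 library of each, and H3K4me1 and input (chromatin sequenced without precipitation) in 1 library each of untreated cells. Whether a library pooled several mice, and the age of the mice, was not given in the sources used here. The macrophage label was not checked against marker genes, because the files hold no gene expression.

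p300 is a histone acetyltransferase that has no DNA sequence of its own to recognise and is brought to enhancers and promoters by transcription factors, where it acetylates histones and other proteins. PU.1 is an ETS-family transcription factor that macrophages need for their development, and it binds many enhancers in that lineage, where it can open chromatin for other factors. H3K4me1 is laid down on nucleosomes around enhancers and is found at both active and poised ones. LPS is sensed through Toll-like receptor 4, which activates NF-κB, AP-1 and interferon regulatory factors, and these recruit p300 to inflammatory genes.

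The read files held 5744811 to 7828655 aligned reads each. The p300 libraries were unequally enriched, and the untreated replicate 1 stood apart. Over the constitutive sites, depth-scaled reads (RPM) relative to input came to 2.14 and 5.86 in LPS replicates 1 and 2, and to 1.21 and 7.21 in untreated replicates 1 and 2. The untreated replicate 1 was therefore near input even at these sites, and results for p300 are given below with and without it. PU.1 was 14.1-fold over input in both the LPS and the untreated library, and H3K4me1 was 5.32-fold over input.

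Because the members were picked by their peaks in p300, PU.1 and H3K4me1, their strength in those marks describes the choice and was not tested. The median peak score, a value of the authors' caller that grows as the p-value shrinks, was 121.63 for the p300 peaks of LPS cells at these sites, against 70.51 over the whole LPS list. It was 148.66 for the p300 peaks of untreated cells, against 71.14 over that list. For the untreated PU.1 peaks the medians were 311.98 at the constitutive sites and 123.46 in the list, and for H3K4me1 375.5 and 111.9. The lowest scores among members were 50.01 in both p300 lists, 50.0 for PU.1 and 50.19 for H3K4me1, so the weakest members sat at the lower end of the deposited lists.

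Few members overlapped a PU.1 or H3K4me1 peak by only a few base pairs. Stricter rules mattered more: 1266 of the 3264 remained with peaks of score 100 or more, and 2078 with at least 50% of the site covered by each list. No member overlapped its PU.1 peak by 10 bp or less, while 11 members overlapped their H3K4me1 peak by 10 bp or less. H3K4me1 over input, as a log2 ratio within 1 kb of the centre, had a median of 1.83 at those 11. On the other side, 6 sites with p300 in both lists and PU.1 missed an H3K4me1 peak by 10 bp or less, and their median was 1.75. Sites within a few base pairs of the line thus had like H3K4me1 values on both sides of it. All 649 sites that failed only for H3K4me1 had a median of 0.53, and the nearest H3K4me1 peak lay a median of 596 bp away.

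Most constitutive sites joined few p300 peaks. A single peak of each p300 list made up 3162 of the 3264, and 102 joined 3 or more peaks. The median width was 828 bp (quartiles 650 and 1102), against 701 bp at 538 sites with p300 in both lists and no PU.1 peak in either state. It was 613 bp at 2304 LPS-only p300 sites with an untreated PU.1 peak and 551 bp at 2638 untreated-only p300 sites with PU.1 and H3K4me1. Over all p300 sites it was 486 bp. A site in both lists joins peaks of both, which favours a greater width than in sites of 1 list alone. Nothing is thus read from the gap in width to the classes of 1 list or to all p300 sites. A single untreated PU.1 peak lay in 3096 members, 2 in 165, 3 in 2 and 4 in 1. H3K4me1 differed in this respect, with 1 peak at 1928 members, 2 at 1258 and 3 at 78.

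The level of p300 varied widely among the members. Normalised p300 reads, which are reads in a site scaled so that the libraries have the same typical count over p300 sites, had medians of 17.4 and 22.2 in LPS replicates 1 and 2 and of 16.7 and 24.5 in untreated replicates 1 and 2. The mean over the 4 libraries had a median of 20.9 per member (quartiles 14.2 and 31.1) and ran between 4.49 and 447.8. The 326 strongest sites held 27.3% of the p300 reads of the group. These are values per site and not per length, and wide sites held more, with Pearson's r of 0.836 between the logs of level and width across the 3264 sites. Members held 32.9% and 39.7% of the scaled p300 reads of all 19879 sites in LPS replicates 1 and 2, and 28.2% and 44.1% in untreated replicates 1 and 2.

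The highest members were among the widest, and chr11:3068379-3074889 and chr7:38972425-38975947 had much input. The site chr11:3068379-3074889 (mouse build mm9, as are all coordinates here) had 573.8 and 223.7 normalised p300 reads in LPS replicates 1 and 2, against 786.5 and 207.2 in untreated replicates 1 and 2. In normalised reads its replicate 1 libraries were above its replicate 2 libraries in both states, and the conditions overlapped. Scaled library sizes were 39.3% (LPS) and 30.6% (untreated) of untreated replicate 2's in the replicate 1 libraries, against 87.3% in LPS replicate 2. This scaling raises the replicate 1 values, so nothing is read from that order. With total reads as library size its mean over the 4 libraries was 381.3, below the 458.5 of chr19:5839447-5849564. The chr11 site had the highest input of any member, 37.9 input reads per kb of site against a median of 7.81. The site chr19:5839447-5849564 was the widest member at 10117 bp and had 4 untreated PU.1 peaks, the most of any. It had 321.7 and 361.3 normalised p300 reads in LPS replicates 1 and 2, and 338.4 and 493.5 in untreated replicates 1 and 2, again overlapping.

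At chr7:38972425-38975947 p300 had 255.0 and 414.8 normalised reads in LPS replicates 1 and 2, and 291.9 and 106.4 in untreated replicates 1 and 2, beside 31.8 input reads per kb. The replicate numbers moved in opposite directions at this site, and the part of input in these values was not tested. The site chr17:29529805-29534313 differed from these, with 276.8 and 465.0 normalised p300 reads in LPS replicates 1 and 2, both above the 93.0 and 120.1 of untreated replicates 1 and 2, and an input of 7.10 reads per kb. Its log2 fold change of 1.74 ± 0.69 (SE) did not pass the test across all sites (limma voom, adjusted p = 0.167). The other 6 of the 10 highest members lay at chr19:10055927-10062121, chr9:99082163-99084422, chr19:10052127-10054031, chr15:6518362-6520458, chr11:117850216-117854694 and chr11:83452727-83455283. Their means over the 4 libraries lay between 147.5 and 185.4 normalised reads. None of the 10 passed the test for a difference between LPS and untreated libraries. At 0 of the 3264 members did input reach the level of every p300 library in RPM. The rule asked for a p300 peak in both states and left little room for such a site. It does not follow that input lay below each single library.

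**Figure D1:**
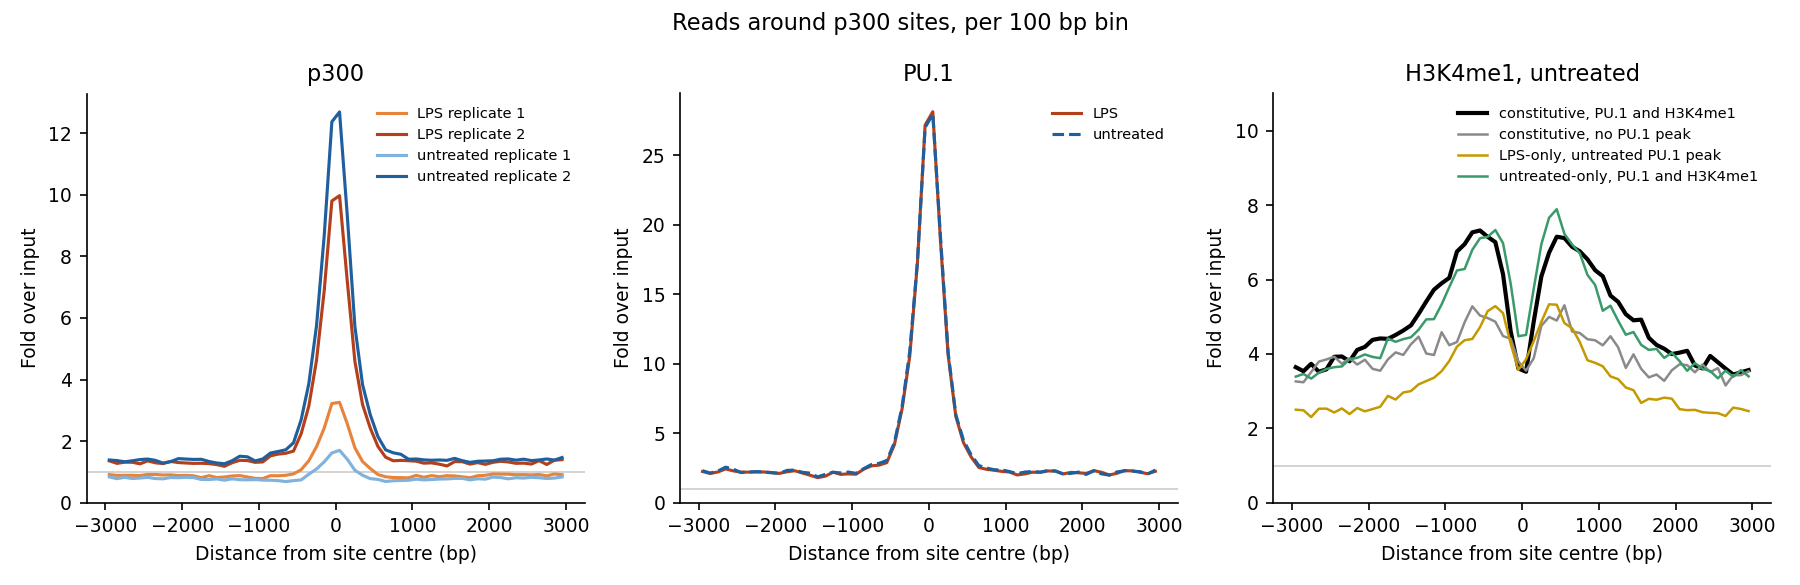
RPM relative to input in 100 bp bins (vertical axis) by distance from the site centre in bp (horizontal axis), for p300 in each library and PU.1 in each state at the 3264 constitutive sites, and for untreated H3K4me1 at these and at 3 other classes of p300 site. The grey line marks the level of input; p300 and PU.1 peak at the centre, the PU.1 curves of LPS and untreated cells lie on each other, the untreated p300 replicate 1 reaches 1.70-fold, and H3K4me1 dips at the centre between 2 shoulders.

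PU.1 had the highest fold over input in these libraries and the same average shape in both states. Fold over input differed between p300 replicates of 1 state (1.70 and 12.7 in untreated cells), so it does not rank the marks. In 100 bp bins around the site centre, PU.1 peaked at 28.1-fold over input in LPS cells and 28.0-fold in untreated cells. p300 peaked in the same bins, at 3.26-fold and 9.97-fold in LPS replicates 1 and 2 and at 1.70-fold and 12.7-fold in untreated replicates 1 and 2. The p300 and PU.1 summits, taken as the middle of the sliding window of about 100 bp with most reads in a site, were close to each other. They lay within 100 bp of each other at 75.2% of members in LPS cells (median offset 47.5 bp) and at 74.6% in untreated cells (median 49 bp). The PU.1 summits of LPS and untreated cells lay within 100 bp at 92.7% of members (exact 95% interval 91.7 to 93.5, counting error only), with a median offset of 20.45 bp. The p300 summits of LPS and untreated cells did so at 85.0% (83.7 to 86.2), with a median offset of 36 bp. The rule asked for p300 and PU.1 peaks in the same site, and summits were sought only within it, so the choice favours closeness. No share for unrelated summits in sites of this width was computed.

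Members with more p300 also had more PU.1 reads, and input reads rose with them. In 4 equal groups of 816 sites by mean p300, the median number of PU.1 reads within 500 bp of the centre was 63.0, 85.5, 108.0 and 125.5 in LPS cells, weakest group first, and 59.5, 83.0, 105.0 and 125.0 in untreated cells. Sites with 2 or more untreated PU.1 peaks numbered 8, 19, 49 and 92 in the same groups. Width grew in parallel, with medians of 582, 748, 936 and 1317 bp. Median input reads within 500 bp of the centre also grew, from 5 and 7 to 9 and 10. The part of width and of input in the PU.1 order was not tested. Across the 3264 members Pearson's r between the logs of p300 level and of PU.1 reads was 0.501. Both values were counted in the same site, whose width both follow, and sites are not replicates.

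H3K4me1 lay on both sides of the p300 centre more than on it. Averaged over the members, the mark stood at 3.57-fold over input in the centre, at 7.32-fold 550 bp to the left and at 7.15-fold 450 bp to the right, and at 3.59-fold over the outermost bins of the 3000 bp on each side. The mean of the shoulders was 2.03 times the centre at the constitutive sites. It was 1.44 times at constitutive sites without any PU.1 peak, 1.43 times at LPS-only sites with untreated PU.1 and 1.69 times at untreated-only sites with PU.1 and H3K4me1. When the profile was set on the PU.1 summit of LPS cells, a library that had no part in choosing the sites, the centre stood at 2.55-fold and the ratio of shoulder to centre at 3.02. H3K4me1 and input had 1 library each, so these ratios have no replicate error and the differences between classes were not tested.

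The dip was shallowest at the weakest p300 sites. In the 4 groups by mean p300, the log2 ratio of H3K4me1 to input within 100 bp of the centre, from summed reads, was 2.37, 1.88, 1.62 and 1.63. From 500 to 1000 bp out it was 2.56, 2.79, 2.89 and 2.76. The flanks were thus close to the centre in the weakest group and further above it in the other 3, with the centre about as low in the strongest group as in the group next to it. Wider sites and stronger sites were largely the same sites, and the part of width in this pattern was not tested.

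**Figure D2:**
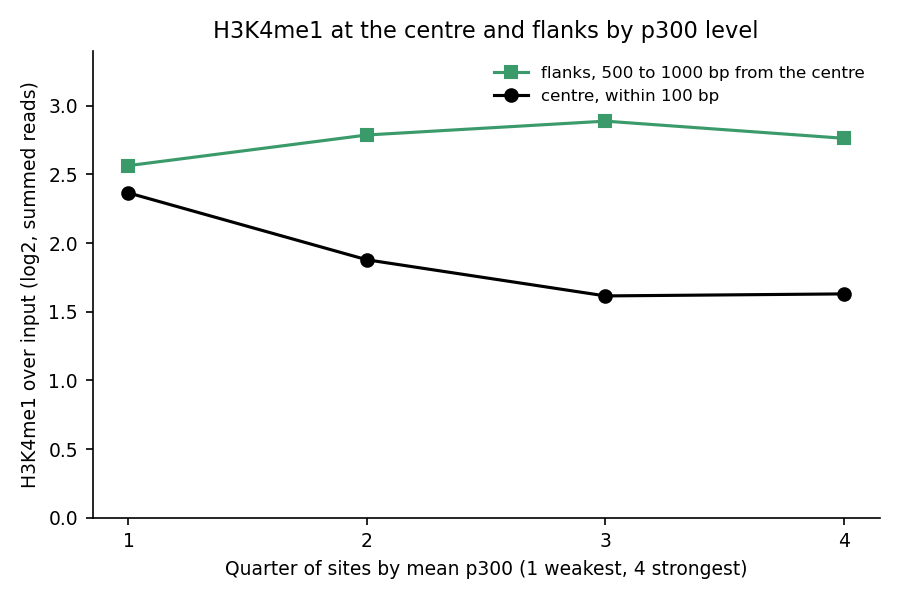
Log2 ratio of untreated H3K4me1 to input, from summed reads (vertical axis), within 100 bp of the site centre (black) and 500 to 1000 bp from it (green), in 4 equal groups of the 3264 constitutive sites by mean p300 (horizontal axis, weakest left). The flank values stay between 2.56 and 2.89 while the centre lies at 2.37 in the weakest group and at 1.62 and 1.63 in the 2 strongest.

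By the deposited H3K4me1 peaks, most centres were covered by the mark and a smaller share lay in a gap. The centre lay inside an H3K4me1 peak at 2173 members (66.6%). At 506 members (15.5%) it lay in a gap with a peak reaching into the site from each side, and the gap had a median width of 238 bp (quartiles 135 and 401). At 585 (17.9%) the peak or peaks lay to 1 side. Among the untreated-only sites with PU.1 and H3K4me1, which met the same condition on H3K4me1, the shares were 82.4%, 6.52% and 11.1%. Those sites were narrower, with a median width of 551 bp against 828 bp at the members. The gap class asks for peaks reaching into the site from each side, and the part of width in these shares was not tested. The 506 members with a gap were wider (median 906.5 bp, against 799.0 bp where the centre was covered) and had more p300 (median 26.0 against 19.4 normalised reads). Their median log2 H3K4me1 ratio within 1 kb was 2.49, close to the 2.53 of all members. Where the peaks lay to 1 side, the 1 kb median was 1.73.

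Within 1 kb, H3K4me1 over input had a median log2 ratio of 2.53 over all members (quartiles 2.06 and 2.99), and 26 members lay below 0. The medians were 2.02 at constitutive sites without PU.1, 1.99 at LPS-only sites with untreated PU.1, 2.57 at untreated-only sites with PU.1 and H3K4me1, and 1.37 over all p300 sites. The rule asked for H3K4me1 in some of these classes and not in others, so the order follows in part from the choice. Pearson's r between log p300 level and this ratio was -0.195 across the members.

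The members richest in H3K4me1 were weak p300 sites with little input. They lay at chr13:73626059-73626576 (log2 ratio 4.98), chr2:75535864-75536591 (4.85), chr11:103107611-103108240 (4.76), chr13:51496488-51497086 (4.63) and chr2:173088974-173089430 (4.62). The first of these had 190 H3K4me1 and 5 input reads within 1 kb, and a mean of 6.69 normalised p300 reads. The poorest were chr19:5839447-5849564 (-3.10), chr17:35335550-35340334 (-2.18), chr11:3068379-3074889 (-1.71), chr5:53979485-53981868 (-1.16) and chr7:133941758-133943519 (-0.94). Each of these was at least 1761 bp wide, had its H3K4me1 peak to 1 side of the centre, and therefore met the rule at its edge. At chr19:5839447-5849564 only 3 H3K4me1 reads lay within 1 kb of the centre, against 33 input reads. The site chr17:35335550-35340334 had 5 H3K4me1 and 26 input reads there, beside 221.7 and 191.1 normalised p300 reads in LPS replicates 1 and 2 and 76.2 and 89.9 in untreated replicates 1 and 2. Within 2 kb instead of 1 kb, the sign turned at 3 of these 5: the log2 ratio was 0.14 at chr17:35335550-35340334, 0.58 at chr5:53979485-53981868 and 1.26 at chr7:133941758-133943519.

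The comparison of LPS with untreated cells asked whether binding at these sites changed within 2 h. For p300 the rule itself required a peak in both states, so the choice favours small differences, and the p300 values are a description. Summed over the members, normalised p300 reads came to 74646 and 97025 in LPS replicates 1 and 2 (mean 85836 ± 15825, SD) and to 63496 and 106297 in untreated replicates 1 and 2 (84897 ± 30265). The LPS sums lay between the untreated sums, and the difference of the means was 0.02 on the log2 scale (exact permutation test, two-sided, p = 1; 2 libraries against 2 cannot go below 0.333). Reads come from a population of cells, so fewer bound cells and less p300 in each cell cannot be told apart.

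Site by site, the log2 fold change of p300 by limma voom had a median of -0.04 at the members (quartiles -0.40 and 0.35, 5th and 95th percentiles -0.91 and 1.05). It was within 1 log2 unit at 90.5% of members and at 49.8% of all tested p300 sites. The medians were 0.06 at constitutive sites without PU.1, 1.03 at LPS-only sites with untreated PU.1, -0.97 at untreated-only sites with PU.1 and H3K4me1 and 0.00 over all sites, which is how these classes were drawn. Same-numbered libraries were also set against each other, though the numbers were not stated to pair them, and the 2 ratios differed in direction. The ratio of replicate 1 uses the untreated library near input. Within replicate 1 the median log2 ratio, LPS over untreated, was 0.17 (quartiles -0.36 and 0.72), and within replicate 2 it was -0.19 (-0.64 and 0.28). The sign was the same in both at 58.4% of members, and Pearson's r between them was 0.344.

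All 3264 members had enough reads to be tested, and 17 (0.521%) were called higher and 1 (0.0306%) lower in LPS cells at an adjusted p of 0.05. Over all 19727 tested sites the shares were 1.97% higher and 0.213% lower (388 and 42 sites), which turned to 44 higher and 282 lower without untreated replicate 2. Nothing is read from this difference, since the rule used the contrast. At 539 members (16.5%) both LPS libraries lay above both untreated libraries, and at 542 (16.6%) below, against 27% and 27.9% of all p300 sites. The number of calls varied with the scaling and with the libraries included, while the folds of the called sites moved less. When libraries were scaled by total reads, limma voom called 0 members (4 at an unadjusted p under 0.05), and when scaled by reads in background bins, 0 as well (3 at an unadjusted p under 0.05). Those scalings moved the median of all sites to 0.20 and 0.16 and that of the members to 0.17 and 0.13. Without LPS replicate 1 or without LPS replicate 2 the test called 0 members (100 and 49 at an unadjusted p under 0.05). Without untreated replicate 1 it called 26 higher and 35 lower, and without untreated replicate 2 it called 18 higher and 0 lower. The median log2 fold change of the 17 members called higher, 2.11 with all libraries, was 2.44 with total reads, 2.41 with background bins, 2.55 without LPS replicate 1, 1.88 without LPS replicate 2, 1.91 without untreated replicate 1 and 2.38 without untreated replicate 2. All 18 called members kept their sign under each of these settings, and 16 of them were still called without untreated replicate 1 and 10 without untreated replicate 2. Without untreated replicate 1 the median log2 fold change of the members was -0.29, and without untreated replicate 2 it was 0.28, so the sign of the typical small difference turned with the library left out.

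The 17 members called higher had log2 fold changes of 1.84 to 2.77 (median 2.11), and at each of them both LPS libraries lay above both untreated libraries. The largest rise was at chr2:90384732-90387901, with 159.4 and 238.0 normalised p300 reads in LPS replicates 1 and 2 and 24.2 and 30.7 in untreated replicates 1 and 2. This gave a log2 fold change of 2.77 ± 0.60 (SE), with an adjusted p of 0.00139 by limma voom. PU.1 here had 239 reads in LPS cells and 88 in untreated cells, and the deposited lists had 2 PU.1 peaks there in each state.

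The site chr5:65225152-65226084 was weaker, with 42.0 and 60.7 normalised p300 reads in LPS replicates 1 and 2 and 7.44 and 9.11 in untreated replicates 1 and 2 (log2 fold change 2.45 ± 0.59, SE, limma adjusted p = 0.00512). Its untreated p300 peak had a score of 51.72, just inside the list, and its LPS peak one of 801.31. On chromosome 11, chr11:83347566-83348939 had 73.9 and 123.3 normalised p300 reads in LPS replicates 1 and 2 and 16.7 and 19.9 in untreated replicates 1 and 2 (log2 fold change 2.28 ± 0.57, SE, limma adjusted p = 0.00773). The site chr13:111358589-111359802 had 75.3 and 108.3 in LPS replicates 1 and 2 and 16.7 and 19.4 in untreated replicates 1 and 2, a log2 fold change of 2.24. At chr3:58320380-58322657 the values were 79.7 and 101.1 in LPS replicates 1 and 2 and 18.6 and 18.2 in untreated replicates 1 and 2, a log2 fold change of 2.23. At each of these 5 sites the LPS values lay well above the untreated values, and the normalised values of the untreated replicates lay close together. Over the group untreated replicate 1 was near input, and its scaled library size was 30.6% of replicate 2's. This scaling raises its reads, background included, so the closeness is not read as agreement.

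The only member called lower was chr6:120423311-120424512. It had 14.5 and 22.2 normalised p300 reads in LPS replicates 1 and 2 and 61.4 and 95.6 in untreated replicates 1 and 2 (log2 fold change -1.99 ± 0.54, SE, limma adjusted p = 0.0199). Both LPS libraries lay below both untreated libraries. PU.1 there had 131 reads in LPS cells and 158 in untreated cells, a ratio of 0.829 whose counting interval, 0.653 to 1.05, held 1. The p300 peak scores at this site were 63.87 in LPS cells and 809.79 in untreated cells.

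**Figure D3:**
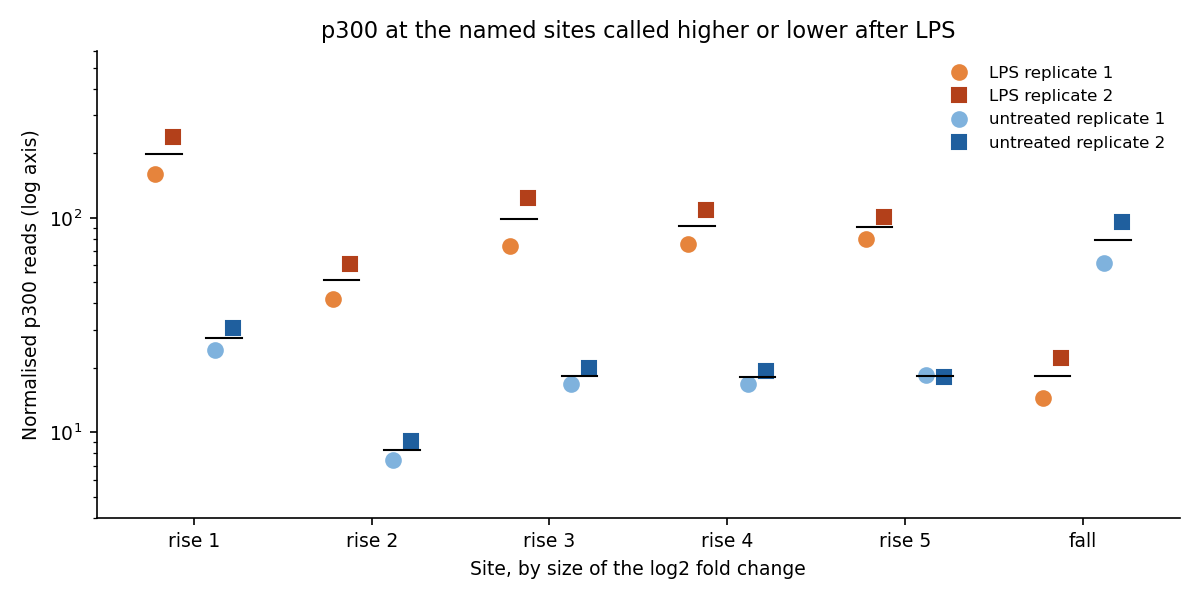
Normalised p300 reads (log axis) in each library at the 5 members with the largest called rise and at the 1 member called lower, ordered by log2 fold change; bars are means of 2 libraries. At each rise the LPS points lie above the untreated points, between 42.0 and 238.0 against 7.44 and 30.7, and at the fall they lie below, at 14.5 and 22.2 against 61.4 and 95.6.

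PU.1 after LPS was not used in choosing the sites, although the untreated PU.1 peak was. An LPS PU.1 peak overlapped 3154 of the 3264 members (96.6%, exact 95% interval 96.0 to 97.2, counting error only). The share was 93.4% (92.3 to 94.4) at LPS-only p300 sites with an untreated PU.1 peak and 93.6% (92.6 to 94.5) at untreated-only sites with PU.1 and H3K4me1, which met the same condition on PU.1. Most untreated PU.1 peaks thus had an LPS peak at the same site in each class. The median member held 97 PU.1 reads in LPS cells and 94 in untreated cells, and single members held 2 to 618 and 4 to 600. The medians were lower at the LPS-only sites, at 54 and 39, and at the untreated-only sites, at 60 and 69. The part of reads per site in the shares with an LPS peak was not tested. Summed over the members, the ratio of LPS to untreated PU.1 reads was 1.036 (exact 95% interval 1.031 to 1.041). On the log2 scale this is 0.0508, and with libraries scaled by total reads it turned to -0.0069. PU.1 had 1 library per state, so this interval covers counting error and compares 2 libraries, not the conditions.

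At 3135 members the 2 PU.1 libraries together held at least 40 reads. Their median log2 ratio, LPS over untreated, was 0.04 (quartiles -0.14 and 0.25, 5th and 95th percentiles -0.52 and 0.75). The ratio was within 2-fold at 3052 of them (97.4%, 96.7 to 97.9), and at 96.9% of all 3264 members when no minimum was set. The share within 2-fold was 95.7% (94.8 to 96.5) at untreated-only sites with PU.1 and H3K4me1, 93.3% (89.2 to 96.2) at constitutive sites without a PU.1 peak, 86.5% (84.9 to 88.0) at LPS-only sites with untreated PU.1, 92.8% over all p300 sites and 94.5% over 42940 PU.1 sites. Beyond 2-fold, 72 members (2.30%) were higher and 11 (0.351%) lower in LPS cells, against 5.77% and 1.45% of all p300 sites. The counting interval lay above 1 at 399 members (12.7%) and below 1 at 187 (5.96%), against 14.5% and 7.67% of all p300 sites. These shares were below the background in both directions for both measures, and members also had more reads per site, which narrows counting error. The rule asked for p300 in both states, and p300 and PU.1 ratios were correlated across the members (Pearson's r 0.466). The choice can thus favour small PU.1 differences too, and nothing is read from the gap to all p300 sites.

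**Figure D4:**
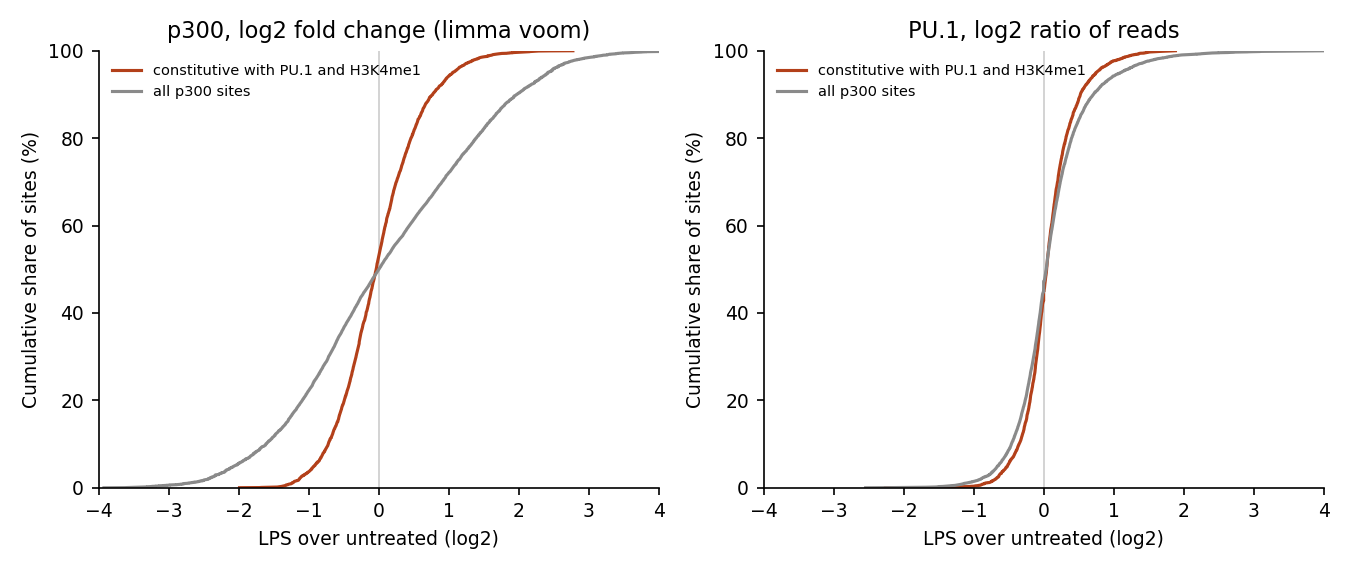
Cumulative share of sites (vertical axis, percent) by log2 ratio of LPS over untreated (horizontal axis) for p300, from limma voom, and for PU.1 at sites with at least 40 reads, at the constitutive sites (red) and at all p300 sites (grey). The p300 curve of the constitutive sites is the steeper, with 90.5% within 1 log2 unit against 49.8%, as the rule favours, and for PU.1 the shares within 2-fold are 97.4% and 92.8%. The rule can favour small PU.1 differences as well.

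The members with the highest PU.1 ratios were weak p300 sites, with 1 exception. PU.1 had 64 reads in LPS cells and 17 in untreated cells at chr12:110629062-110629775 (ratio 3.76, exact 95% interval 2.18 to 6.86). It had 66 and 18 at chr13:102425717-102426128, 35 and 10 at chr1:80049490-80050112 and 50 and 15 at chr12:120402596-120403211, LPS cells first, and mean p300 at these 4 lay between 8.87 and 11.6 normalised reads. The exception was chr13:42339339-42341012, with 205 PU.1 reads in LPS cells and 59 in untreated cells (ratio 3.47, 2.59 to 4.72). p300 there had 65.2 and 133.0 normalised reads in LPS replicates 1 and 2 and 16.7 and 33.6 in untreated replicates 1 and 2, and was called higher (log2 fold change 1.87 ± 0.56, SE, limma adjusted p = 0.0429).

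The 5 lowest PU.1 ratios lay at chr1:161526768-161527341, chr11:109532885-109533728, chr8:119864042-119864630, chr11:20555811-20556441 and chr9:66729524-66730710. The first had 9 PU.1 reads in LPS cells and 45 in untreated cells (ratio 0.200, exact 95% interval 0.0860 to 0.414), and p300 of 8.69 and 11.1 normalised reads in LPS replicates 1 and 2 against 14.9 and 31.3 in untreated replicates 1 and 2. The last had 50 and 121 PU.1 reads, LPS cells first (0.413, 0.291 to 0.579), and p300 of 15.9 and 26.7 normalised reads in LPS replicates 1 and 2 against 18.6 and 60.9 in untreated replicates 1 and 2. At the first both LPS p300 libraries lay below both untreated libraries, and at the last they overlapped. None of the 5 passed the test for p300.

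The 110 members without an LPS PU.1 peak were weak in PU.1 in both states. They held a median of 22 PU.1 reads in LPS cells and 31 in untreated cells, against 100 and 96 at the other members, and the median score of their untreated PU.1 peaks was 67.91. Their summed PU.1 ratio was 0.830 (exact 95% interval 0.794 to 0.867). Their median p300 log2 fold change was 0.02, and 0 of the 110 were called by limma voom. An untreated peak was required and an LPS peak was missing at these sites, so nothing is read from their ratio.

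Where PU.1 and p300 differed between states, they tended to differ in the same direction. At the 72 members with more than 2-fold more PU.1 in LPS cells, the median p300 log2 fold change was 0.80 (quartiles 0.43 and 1.17), 64 lay above 0, and 10 of the 17 called rises were among them. At the 11 members with more than 2-fold less PU.1, it was -0.51 (-0.85 and -0.08), and 9 lay below 0. The replicates gave these medians separately as 0.72 and 0.95 at the 72 sites and as -0.36 and -0.61 at the 11, for replicate 1 and replicate 2. All 17 called rises had a PU.1 ratio above 1, with log2 ratios of 0.46 to 1.79 (median 1.09), and at 16 the counting interval lay above 1. Their log2 H3K4me1 ratio at rest lay between -0.71 and 3.12, with a median of 2.35, against 2.53 over all members.

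The same order held among sites with smaller differences. In 5 equal groups of 627 members by PU.1 ratio, lowest first, the median p300 log2 ratio within replicate 1 was -0.06, -0.01, 0.14, 0.28 and 0.53. Within replicate 2 it was -0.53, -0.41, -0.25, 0.00 and 0.36. The replicate 2 values lay below the replicate 1 values in every group, and the order of the groups was the same. All 17 called rises lay in the group with the highest PU.1 ratio, and the called fall lay in the group with the lowest. Across the 3135 members Pearson's r of the PU.1 log2 ratio was 0.254 with the p300 log2 ratio of replicate 1, 0.482 with that of replicate 2 and 0.466 with that of the fit (Spearman's rho 0.439). The points share the same pair of PU.1 libraries and are sites of 1 genome, not replicates, so no p-value is given.

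**Figure D5:**
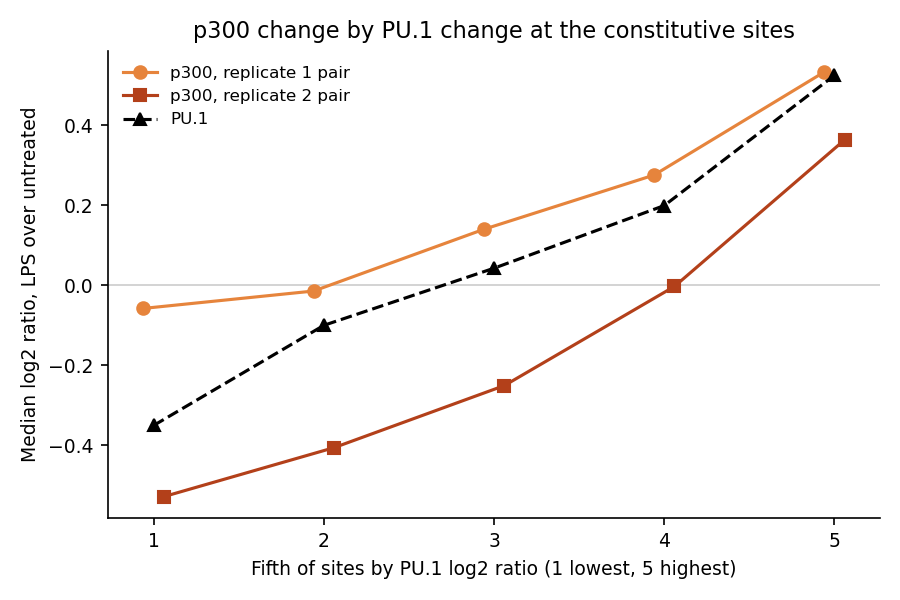
Median log2 ratio, LPS over untreated (vertical axis), of p300 in the replicate 1 pair (orange) and the replicate 2 pair (red) and of PU.1 (black, dashed), in 5 equal groups of 627 constitutive sites by their PU.1 ratio (horizontal axis, lowest left). Both p300 lines go up with the PU.1 ratio, from -0.06 to 0.53 in replicate 1 and from -0.53 to 0.36 in replicate 2.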

How the data were processed

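Reads aligned to mouse build mm9, per the submitters' processing notes, were deposited by the authors with 36 bp coordinates and strand, 1 read per line; no aligner is named in the sources used here. The authors called peaks with MACS, per their column description, and the deposited score of a peak is 10 times its -log10 p-value. Per the file headers, the peak controls were named naked (p300), random (PU.1) and input (H3K4me1), and p300 replicates were merged before calling, per the series' design text. LPS is named in the header of the untreated PU.1 list. Its 14147 peaks absent from the LPS list had 112983 reads of the LPS library and 205573 of the untreated library, and it was used under its label.

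The members, lists and tests were chosen with earlier results of these data known. Here 1 read was kept per position and strand and 5' ends were moved 100 bp. p300 reads in merged sites with at least 10 reads were scaled by the median of ratios and tested in limma voom (versions: limma 3.58.1, R 4.3.3) for treatment alone, with a Benjamini-Hochberg threshold of 0.05. A single residual variance was fitted for all sites, so SE and p carry no spread particular to 1 site. The design planned no count-table test, as the files hold reads. Untreated p300 replicate 1 had a scaled library size of 30.6% of replicate 2's, although it held more distinct reads (6437569 against 5924092). PU.1 ratios carry exact intervals conditional on the sum, with 0.5 reads added on the log2 scale; H3K4me1 ratios had 1 read added and total-read scaling. Shares carry exact (Clopper-Pearson) 95% intervals. Intervals cover counting error only. Counting and the fit were tested on simulated data.

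Sites named are the 10 highest in p300, the 5 largest called rises and falls, the 5 highest and 5 lowest PU.1 ratios, the 3 widest, the 1 with most PU.1 peaks and the 5 highest and 5 lowest in H3K4me1. Gene names, motifs and sequences of the sites were not analysed here, as the reference tables used another build, and sites of 1 chromosome were counted but not named. Coordinates are as deposited.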

Additional observations from a re-analysis of the deposited data

Results flagged for a closer look

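Outside chromosomes 1 to 19 and X, 38 p300 sites were left out of the comparisons, and 1 of them, on an unplaced sequence, overlapped a peak of all 4 lists. Its depth-scaled reads (RPM) lay above the 1.32 of input in each precipitated library. They came to 4.00 and 16.0 for p300 in LPS replicates 1 and 2 and to 4.51 and 32.9 in untreated replicates 1 and 2. PU.1 had 28.7 in LPS cells and 28.7 in untreated cells, and H3K4me1 had 2.79. Input rested on 8 reads here, and no difference between states was tested.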

How the results depend on the processing

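p300 calls depended most on the processing. Against 430 called p300 sites and 18 called members, limma voom called 0 and 0 with total reads as library size (1494 and 4 at an unadjusted p under 0.05) and 0 and 0 with background bins (1449 and 3). Leaving out each replicate gave 13 to 707 sites and 0 to 61 members, a member median log2 fold change of -0.29 to 0.28 (main -0.04) and a summed p300 log2 ratio of -0.31 to 0.43 (main 0.02). A lone library left in a state was there assumed to vary like the others. The replicate numbers of the read files were not stated to pair the libraries. Same-numbered libraries deviated together with r = 0.275 over all sites and 0.174 over members, from 2 pairs. With the replicate block 1291 sites (896 higher, 395 lower) and 179 members (112 higher, 67 lower) were called, the 18 among them. With replicate 2 of each state alone, an alternative added after seeing the data, the member median was -0.19 and the summed ratio -0.13. Between 15 and 17 of the 18 stayed called with no filter, all reads, a 50 bp shift or limma-trend. The cause of these differences was not tested.

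The summed PU.1 log2 ratio (main 0.0508) was -0.0069 with total reads, 0.0664 within 100 bp of the centre and 0.0781 with all reads kept, where 96.1% of members lay within 2-fold. The median H3K4me1 ratio (main 2.53) was 2.35 within 500 bp, 2.36 within 2 kb, 2.56 with all reads, 2.58 with 0.5 reads added and 4.66 with background bins. Of the 5 lowest H3K4me1 members, chr17:35335550-35340334 turned to 0.14, chr5:53979485-53981868 to 0.58 and chr7:133941758-133943519 to 1.26 within 2 kb, and chr11:3068379-3074889 turned to 0.42, chr5:53979485-53981868 to 0.97 and chr7:133941758-133943519 to 1.18 with background bins. Members numbered 2078 with at least 50% of the site covered by each list and 1266 with peaks of score 100 or more. Motif and nearest-gene alternatives were not run. The low enrichment of untreated replicate 1 over input limits the p300 comparison.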

Other observations

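Some constitutive sites lay in groups, a description chosen after their values were seen. The nearest other member lay a median of 45689 bp away, and 848 members (26.0%) had another within 10 kb. At gaps of up to 10 kb, 204 members formed 63 groups of 3 or more. Groups of 5 members spanned chr16:96035867-96061987 and chr6:113593759-113627971.

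In the chr16 group the summed normalised p300 reads were 259.4 and 395.9 in LPS replicates 1 and 2 and 239.8 and 447.4 in untreated replicates 1 and 2, so the states overlapped, and PU.1 had 942 reads in LPS cells and 926 in untreated cells. In the chr6 group the sums were 150.7 and 241.3 in LPS replicates 1 and 2 and 104.1 and 166.2 in untreated replicates 1 and 2, which overlap as well, with 772 PU.1 reads in LPS cells and 669 in untreated cells. The log2 fold changes of its 5 members lay between -0.31 and 1.04, and limma voom called 0 of them. The group of 4 members at chr10:8589584-8602151 spanned 12567 bp, with log2 fold changes between -0.69 and 0.64. There too limma voom called 0 members, so no direction is read from these values.

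Members were spread over all chromosomes used, with most on chromosome 2 (296) and fewest on X (22).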
